A study of Mus musculus with 9 samples.

Results

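Ribosome-bound mRNAs of 9 genes used to recognise brain pericytes were measured in astrocyte TRAP libraries. Translating ribosome affinity purification, or TRAP, pulls down ribosomes carrying a GFP tag together with the mRNAs bound to them. The genes were chosen by symbol from knowledge of the cell type, with earlier results of these data known. They are Rgs5, Pdgfrb, Kcnj8, Abcc9, Vtn, Anpep, Cspg4, Higd1b and Ndufa4l2, 9 of the 22092 genes with counts. All mice were 2 months old, of the strain Aldh1L1 JD130 and the genotype tg:Aldh1L1-L10aGFP, in which the Aldh1l1 promoter drives the tagged ribosomal protein L10a in astrocytes. For whole astrocyte TRAP (3 libraries), polysomes came from a whole brain each, without choroid plexus. For endfeet TRAP (6 libraries), they came from mechanically purified brain vessels pooled over several mice, with cycloheximide in the buffers, so the astrocyte material was what stays attached to the vessel wall. Purified vessels also hold the cells of the vessel wall, pericytes included, which the transgene is not designed to tag, and no unbound or untagged fraction was analysed here.

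Pericytes are mural cells embedded in the basement membrane of capillaries and small venules, wrapped in the brain by the endfeet of astrocytes. They are recruited during development by platelet-derived growth factor B, which endothelial cells release and which binds the receptor Pdgfrb on the pericyte, and they are needed for the blood-brain barrier and take part in the control of capillary tone. Several of their marker genes are shared with arterial smooth muscle cells, with perivascular fibroblasts or with oligodendrocyte precursor cells.

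Sequences upstream of the start site are shown for 4 of the genes. These are Rgs5, the most abundant of the 9 in endfeet TRAP, and the neighbours Kcnj8 and Abcc9, whose proteins form a single channel. The last is Vtn, a gene of the matrix and the next most abundant of the 9 there. RefSeq promoter sequences (build GRCm38.p6) matched 6 of the 9 genes, these 4 with Anpep and Cspg4. Each line gives the 250 bases before the start used there, 5′ to 3′ on the strand of the gene, with a match to any searched motif in capitals. That start is not always the outer edge of the gene. The windows of Vtn and Abcc9 reach into the annotated genes, which begin at 78499091 for Vtn and end at 142702315 for Abcc9.
Rgs5, chr1:169655251-169655500, plus strand: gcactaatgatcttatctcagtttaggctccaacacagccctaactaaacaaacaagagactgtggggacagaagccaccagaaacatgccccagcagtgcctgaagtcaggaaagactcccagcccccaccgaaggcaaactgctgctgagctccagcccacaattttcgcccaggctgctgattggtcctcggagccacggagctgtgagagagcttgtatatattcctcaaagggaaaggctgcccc
Kcnj8, chr6:142571615-142571864, minus strand: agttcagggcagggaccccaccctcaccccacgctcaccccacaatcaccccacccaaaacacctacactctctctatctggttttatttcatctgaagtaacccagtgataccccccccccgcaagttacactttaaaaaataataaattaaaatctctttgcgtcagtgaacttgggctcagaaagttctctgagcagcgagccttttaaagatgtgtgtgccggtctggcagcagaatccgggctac
Abcc9, chr6:142702275-142702524, minus strand: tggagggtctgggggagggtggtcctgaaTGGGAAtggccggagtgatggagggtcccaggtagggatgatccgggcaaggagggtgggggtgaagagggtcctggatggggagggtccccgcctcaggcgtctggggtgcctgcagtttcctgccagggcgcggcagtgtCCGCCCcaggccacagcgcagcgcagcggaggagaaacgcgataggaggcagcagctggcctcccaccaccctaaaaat
Vtn, chr11:78498870-78499119, plus strand: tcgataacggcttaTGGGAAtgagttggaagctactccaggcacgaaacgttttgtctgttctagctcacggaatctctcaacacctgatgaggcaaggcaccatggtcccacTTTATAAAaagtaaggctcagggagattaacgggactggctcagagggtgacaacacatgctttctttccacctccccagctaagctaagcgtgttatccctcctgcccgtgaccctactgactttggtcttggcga

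The motifs searched on both strands were the core site of the Notch effector RBPJ (TGGGAA), the GC box (GGGCGG), the TATA box (TATAAA), a forkhead core (GTAAACA) and the CArG box bound by serum response factor. The RBPJ core was found before Abcc9 and Vtn, 2 of the 6 matched genes, and in 21.6% of 32851 promoters of the same length. The GC box stood before Abcc9, Anpep and Cspg4, and in 32.7% of all promoters. The TATA box was found before Vtn, where a match on each strand overlaps the other (TTTATAAA), and in 12.4% of all promoters. No match to the forkhead core or the CArG box was found in the 6 windows, against 3.17% and 1.47% of all promoters. The 250 bases before Rgs5 and Kcnj8 held none of these letters. The share of G and C ranged from 49.2% for Kcnj8 to 72.8% for Anpep, with 66.8% for Abcc9 and a median of 52.4% over all promoters. These matches describe the letters of the windows only.

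The question of the comparison was which mRNAs differ between ribosomes recovered from the perivascular endfeet preparation and those of the whole astrocyte. All 9 genes had higher levels in endfeet TRAP than in whole astrocyte TRAP. Their log2 fold changes ranged from 4.52 for Ndufa4l2 to 9.56 for Abcc9 with a median of 5.80, beside a median of 0.10 over the 14427 genes tested. Tested with the quasi-likelihood method of edgeR and adjusted after Benjamini-Hochberg over all genes tested, 9 of 9 were called higher, and the highest adjusted p among them was 0.0145. Over all genes tested, 20.7% were called higher and 13.9% lower. In 9 of 9 genes the lowest endfeet library stood above the highest whole astrocyte library in CPM (counts scaled to the library total), which held for 17.7% of all genes tested. For Ndufa4l2 that order, 0.307 against 0.306 CPM, rests on 2 counts and cannot be read at this depth. As whole pools were sequenced, fewer cells of a type and less RNA per cell cannot be told apart, and p-values measure the spread between these libraries.

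**Figure D1:**
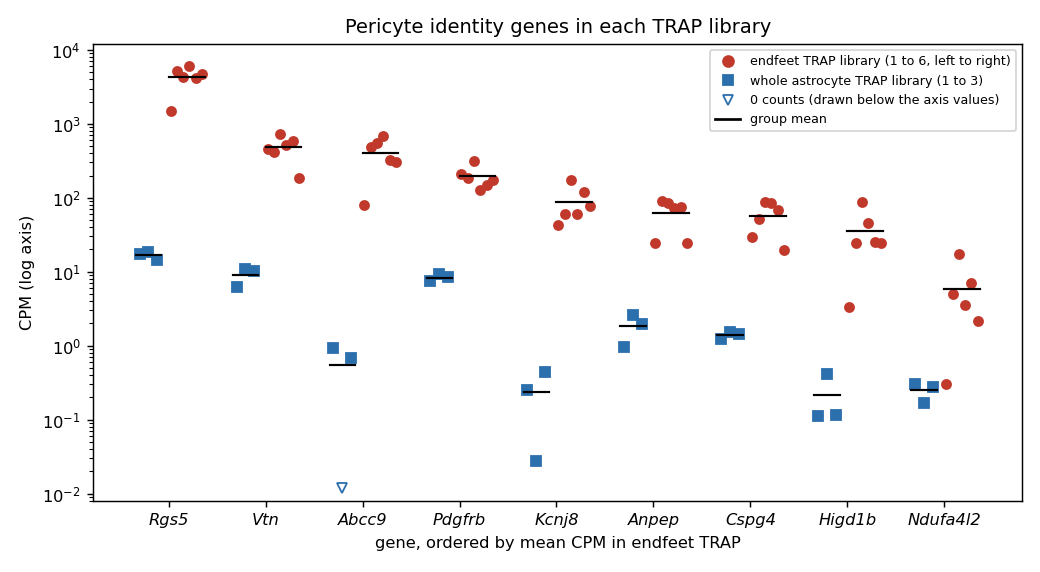
Level of each gene in each library, in CPM on a log axis. Circles are the 6 endfeet TRAP libraries in the order of their numbers, squares the 3 whole astrocyte TRAP libraries, bars the group means and the open triangle a library with 0 counts. Endfeet values stand apart from whole astrocyte values for every gene but Ndufa4l2, whose endfeet library 1, at 0.307 CPM from 2 counts, lies beside the whole astrocyte values.

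Library size sets how low a level could be read. Whole astrocyte libraries held 35984144 to 43521208 counts over genes, and endfeet libraries 2319495 to 13450588. A floor of 3 counts thus lay at 0.0689 to 0.0834 CPM in whole astrocyte TRAP and at 0.223 to 1.29 CPM in endfeet TRAP, covering counting error only. Endfeet library 6 was the smallest and library 1 the next, with 6511709 counts. The numbers carried by the libraries fall into a series with endfeet 1 to 3 and a series with endfeet 4 to 6 and all whole astrocyte libraries, and what they stand for is not stated. Among the libraries of the second series alone, all 9 genes were again called higher, with a median log2 fold change of 5.51.

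The signalling genes were Rgs5 and Pdgfrb. Rgs5, a regulator of G protein signalling that speeds up GTP hydrolysis by G alpha subunits, had 17.5, 18.7 and 14.5 CPM in the whole astrocyte libraries. In endfeet TRAP it ranged from 1493 to 6104 CPM with a median of 4533. The lowest endfeet library was library 1, and the other 5 stood at 4220 CPM or above. The endfeet mean was 4337 ± 1549 CPM (SD, n = 6) against 16.9 ± 2.14 (n = 3), which is 268-fold, or 8.07 ± 0.50 in log2 (SE, adjusted p = 2.18e-07, edgeR). Reads identical between gene copies were discarded before counting, and nearly all Rgs5 reads fell on its longer transcript, with 19 to 301 counts on the shorter one in endfeet libraries.

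Of 9 other genes of the R4 subfamily, 6 were tested. Of these, 2 were called higher and 1 lower, beside 20.7% and 13.9% over all genes tested. Rgs3 (log2 fold change 1.54, adjusted p = 0.0127) and Rgs4 (1.06, adjusted p = 0.0146) were higher by edgeR. Rgs8 was lower by edgeR (log2 fold change -1.85, adjusted p = 0.0437). These 3 calls were lost with any whole astrocyte library left out, at adjusted p from 0.06 to 0.144 in edgeR, and that of Rgs8 also without endfeet library 3, 5 or 6 (0.0518 to 0.0639). Within the number series that holds both groups, Rgs3 had 1.05 (adjusted p = 0.051, edgeR). Rgs2, Rgs16 and Rgs18 did not pass, with log2 fold changes of -0.91, -0.54 and 2.48, and Rgs1, Rgs13 and Rgs21 were too low to be tested. Rgs4, the most counted of them, had 151 to 159 CPM in whole astrocyte TRAP and 125 to 451 in endfeet TRAP.

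Pdgfrb, the receptor tyrosine kinase through which pericytes are recruited, had 7.42, 9.21 and 8.39 CPM in whole astrocyte TRAP. In endfeet TRAP it ranged from 129 to 314 CPM with a median of 180.0. Its lowest endfeet library was library 4 and its highest library 3, and the 2.44-fold span between them was the narrowest of the 9 genes. The groups differed 24.6-fold, or by 4.62 ± 0.38 in log2 (SE, adjusted p = 1.80e-06, edgeR), the second smallest change of the 9. Within the number series that holds both groups it was 4.14 (adjusted p = 9.81e-05, edgeR).

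Of the other genes of this ligand and receptor system, 3 of 5 were higher and none was lower. Pdgfb, the ligand released by endothelial cells, had 1.0 to 2.76 CPM in whole astrocyte TRAP and 9.37 to 79.6 in endfeet TRAP, a difference of 4.58 ± 0.75 in log2 (SE, adjusted p = 0.000458, edgeR). Pdgfd, another ligand of Pdgfrb, had 3.01 (adjusted p = 0.000186, edgeR). Pdgfra, the receptor found on oligodendrocyte precursors and on fibroblasts, had 7.70 to 8.56 CPM in whole astrocyte TRAP and 91.0 to 180.1 in endfeet TRAP, a log2 fold change of 4.06 (adjusted p = 3.81e-06, edgeR). Pdgfa and Pdgfc did not pass, at 1.41 (adjusted p = 0.145, edgeR) and 1.42 (adjusted p = 0.178, edgeR), though Pdgfa passed without endfeet library 1 (1.63, adjusted p = 0.0435, edgeR) or library 6 (1.62, adjusted p = 0.049).

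Kcnj8 and Abcc9 encode the pore-forming and the sulfonylurea receptor subunit of the ATP-sensitive potassium channel of mural cells. Their genes are neighbours on the minus strand of chromosome 6 (build mm10), at chr6:142564837-142571614 for Kcnj8 and chr6:142587862-142702315 for Abcc9, with 16247 bases between them. They had the largest log2 fold changes of the 9 genes and were close to undetected in whole astrocyte TRAP. Kcnj8 had 9, 1 and 19 counts there, or 0.250, 0.0278 and 0.437 CPM, the second of them under the floor. In endfeet TRAP it ranged from 43.2 to 174 CPM with a median of 69.0. It was 367-fold higher, or by 8.52 ± 0.85 in log2 (SE, adjusted p = 8.59e-06, edgeR), and this change was 8.0 without whole astrocyte library 2 and 9.26 without library 3.

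Abcc9 had 34, 0 and 30 counts in the whole astrocyte libraries, or 0.945, 0 and 0.689 CPM. In endfeet TRAP it ranged from 80.3 to 694 CPM with a median of 399. Library 1 was the lowest, and the other 5 stood at 305 CPM or above. The log2 fold change was 9.56 ± 1.09 (SE, adjusted p = 2.60e-05, edgeR), or 753-fold. It rests on few whole astrocyte counts, since it was 10.21 without library 1 of that group and 8.97 without library 2, which holds the 0. The 4 transcripts of Abcc9 had almost the same counts in each library, so its splice forms could not be told apart.

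The ratio of the 2 channel mRNAs was not constant between endfeet libraries. Per kb of transcript, Abcc9 over Kcnj8 was 0.680, 2.93, 1.17, 4.23, 0.982 and 1.43 in endfeet libraries 1 to 6. These ratios rest on the counted Abcc9 transcript, of 6213 bases. Its other transcripts, of 7306 to 7499 bases, had almost the same counts and give lower ratios. Kcnj8 was the more abundant of them per kb in libraries 1 and 5, and Abcc9 in libraries 2, 4 and 6. In library 3 the order depends on which transcript is used. The subunits of the ATP-sensitive channel of neurons and beta cells did not pass in either direction with all libraries in the fit. Kcnj11 had 0.971 to 1.67 CPM in whole astrocyte TRAP and 0 to 2.84 in endfeet TRAP (log2 fold change -1.09, adjusted p = 0.58, edgeR). Endfeet library 4 held 36 counts, nearly all of those in endfeet TRAP, and without that library it was lower (-4.34, adjusted p = 0.00933, edgeR). The remaining endfeet libraries held 0 to 2 counts, under the floor, so the -4.34 gives no measurable fold. Abcc8 had 0.584 to 1.05 CPM and 0 to 4.51 CPM in the same order (0.39, adjusted p = 0.873, edgeR), and its direction turned in the number series that holds both groups (-7.40, adjusted p = 0.0105, edgeR). The endfeet libraries of that series, 4 to 6, held 0 counts of Abcc8, so the -7.40 gives no measurable fold.

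Vtn and Cspg4 encode proteins of the pericyte surface and its matrix. Vtn, or vitronectin, a matrix glycoprotein that pericytes deposit and that binds integrins, lies at chr11:78499091-78502324 on the plus strand. It had 6.31, 11.0 and 10.2 CPM in whole astrocyte TRAP and 185 to 735 CPM in endfeet TRAP, with a median of 490.3. Its lowest endfeet library was library 6, the smallest. Endfeet TRAP was 55.6-fold higher, or 5.80 ± 0.47 in log2 (SE, adjusted p = 1.58e-06, edgeR). Part of the Vtn counts fell on 3 annotated transcripts with retained introns, of which the most counted had 304 to 6940 counts in endfeet libraries against 430 to 9777 for the coding transcript, and these overlap it.

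Of 6 vitronectin receptor genes tested, 5 were higher by edgeR. Itgb1, which pairs with many alpha subunits, had 23.5 to 28.3 CPM in whole astrocyte TRAP and 138 to 488 in endfeet TRAP (log2 fold change 3.78, adjusted p = 8.03e-06, edgeR). Itgav, the alpha subunit of the main vitronectin receptors, had the smallest change that passed (log2 fold change 1.36, adjusted p = 0.0474, edgeR). Its partners Itgb3 (4.57, adjusted p = 0.0209), Itgb5 (1.70, adjusted p = 0.0272) and Itgb6 (6.15, adjusted p = 0.0456) passed in edgeR too. Itgb3 had 0.445 to 0.860 CPM in whole astrocyte TRAP and 0.154 to 46.4 in endfeet TRAP. Its lowest endfeet library, library 1, held 1 count, under the floor. Itgb6 had 0 counts in endfeet libraries 5 and 6. Itgb6 had 0, 0 and 5 counts in the whole astrocyte libraries, so its value is uncertain, and it was 8.70 without library 3 and 4.27 with the number series as a covariate. The calls of Itgav, Itgb3, Itgb5 and Itgb6 were lost with any whole astrocyte library left out (adjusted p from 0.0654 to 0.165, edgeR). Itgav was also lost without endfeet library 1, 4 or 5 (0.068 to 0.11), and Itgb5 without endfeet library 4 or 5 (0.0549 and 0.06). Within the number series that holds both groups, Itgav had 0.99 (adjusted p = 0.117, edgeR) and Itgb5 1.29 (adjusted p = 0.085). Itgb8, a beta subunit of astrocytes, did not pass (0.59, adjusted p = 0.129, edgeR). Plaur was too low to be tested.

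Cspg4 encodes the NG2 proteoglycan of pericytes and oligodendrocyte precursors, and lies at chr9:56865033-56899870 on the plus strand. It had 1.22, 1.53 and 1.43 CPM in whole astrocyte TRAP, the narrowest spread but for Pdgfrb, and 19.8 to 87.5 CPM in endfeet TRAP with a median of 60.6. Libraries 1 and 6 were the lowest, at 29.2 and 19.8 CPM, and the other 4 stood at 52.1 or above. This was a 42.2-fold difference, or 5.40 ± 0.63 in log2 (SE, adjusted p = 2.91e-05, edgeR). Markers of oligodendrocyte precursors, which also make NG2, were called in both directions. Of 9 tested, 2 were higher and 3 lower, beside 20.7% higher and 13.9% lower over all genes tested. Their summed level was 126 to 296 CPM in endfeet TRAP against 476 to 490.0 in whole astrocyte TRAP. Pdgfra, also a listed fibroblast marker, gave 91.0 to 180.1 CPM of this sum in endfeet TRAP and 7.70 to 8.56 in whole astrocyte TRAP. Olig2, a transcription factor of the oligodendrocyte lineage, was lower (log2 fold change -4.31, adjusted p = 0.000995, edgeR), while Pdgfra was higher. Gpr17 and Cacng4 had -0.72 and -1.09 and did not pass.

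Anpep, the membrane alanyl aminopeptidase that trims peptides at the cell surface, lies at chr7:79821803-79861059 on the minus strand. It had 0.973, 2.64 and 1.98 CPM in whole astrocyte TRAP and 24.4 to 91.7 CPM in endfeet TRAP with a median of 73.9. As with Cspg4, endfeet libraries 1 and 6 were the lowest, at 24.4 and 24.6 CPM, with the other 4 at 71.9 or above. The groups were 34.4-fold apart, or 5.11 ± 0.65 in log2 (SE, adjusted p = 6.48e-05, edgeR). Of 7 other aminopeptidases of its family, 3 of 6 tested were higher, beside 20.7% over all genes tested. Enpep, the glutamyl aminopeptidase that also marks pericytes, had 0.0278 to 0.361 CPM in whole astrocyte TRAP and 21.5 to 105 in endfeet TRAP (log2 fold change 8.14, adjusted p = 2.94e-05, edgeR). Erap1 and Lnpep had 3.14 (adjusted p = 0.000593, edgeR) and 2.20 (adjusted p = 0.000817, edgeR). The ubiquitous Npepps and Rnpep had -0.92 and -0.38 and did not pass, nor did Trhde at 0.65, and Lvrn was too low to be tested. Npepps was lower without endfeet library 1 (-1.26, adjusted p = 0.00235, edgeR) and within the number series that holds both groups (-1.17, adjusted p = 0.00727, edgeR).

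Higd1b and Ndufa4l2 encode small proteins of the mitochondrial membrane, and each has a paralog expressed in most cells. Higd1b, of the hypoxia-inducible HIG1 family, lies at chr11:102835849-102838040 on the plus strand. It had 4, 15 and 5 counts in the whole astrocyte libraries, or 0.111, 0.416 and 0.115 CPM. In endfeet TRAP it ranged from 3.38 to 88.2 CPM, a 26.1-fold span, with a median of 25.0. Library 1 was the lowest and library 3 the highest, while libraries 2, 5 and 6 lay between 24.1 and 25.4. The log2 fold change was 7.34 ± 1.11 (SE, adjusted p = 0.000227, edgeR), or 162-fold, and 8.18 without whole astrocyte library 2.

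Ndufa4l2, a relative of a cytochrome oxidase subunit that hypoxia induces, lies at chr10:127514967-127517154 on the plus strand and had the weakest support of the 9 genes. It had 0.306, 0.167 and 0.276 CPM in whole astrocyte TRAP, from 11, 6 and 12 counts. In endfeet TRAP it ranged from 0.307 to 17.6 CPM, a 57.3-fold span, with a median of 4.26. Endfeet library 1 held 2 counts, under the floor of 3, so that its place above the whole astrocyte libraries could not be read at this depth. Its log2 fold change was 4.52 ± 1.27 (SE, adjusted p = 0.0145, edgeR), or 22.9-fold. It did not pass without whole astrocyte library 1 (4.72, adjusted p = 0.0674, edgeR), library 2 (4.28, adjusted p = 0.0862) or library 3 (4.57, adjusted p = 0.0742), and it was 3.92 without endfeet library 3 (adjusted p = 0.0247). A stretch of 32 of its 1095 exon bases is shared with Shmt2 on the other strand, and whether strand was used in counting is not stated.

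The paralogs went the other way. Ndufa4, the paralog of Ndufa4l2 that is a subunit of cytochrome oxidase, had 152 to 168 CPM in whole astrocyte TRAP and 19.9 to 90.2 in endfeet TRAP, or -1.70 in log2 (adjusted p = 0.0106, edgeR). Higd1a, the paralog of Higd1b, had 115 to 120.1 CPM and 2.59 to 51.1 CPM in the same order, a log2 fold change of -1.94 (adjusted p = 0.0262, edgeR). The call of Higd1a was lost with any whole astrocyte library or endfeet library 2 left out (adjusted p from 0.0554 to 0.0833, edgeR) and within the number series that holds both groups (-2.18, adjusted p = 0.0618). Higd2a was lower too (-1.94, adjusted p = 0.000648, edgeR), and Higd1c was at 0 in every library. The ratio of Higd1a to Higd1b in CPM, not corrected for length, was 277 to 1080 in whole astrocyte TRAP and 0.107 to 11.8 in endfeet TRAP. The ratio of Ndufa4 to Ndufa4l2 was 497 to 1009 in whole astrocyte TRAP and 3.20 to 15.2 in endfeet libraries 2 to 6, with 294 in library 1.

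**Figure D2:**
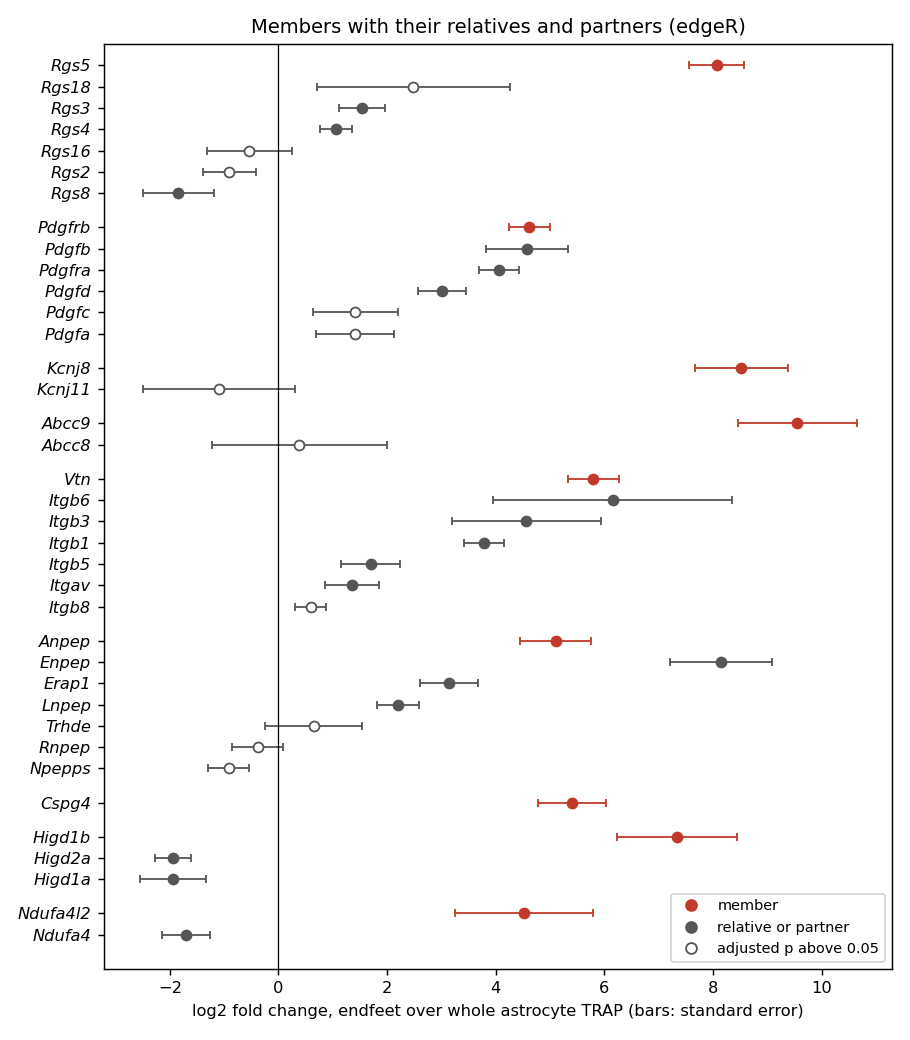
Log2 fold change of each gene, endfeet over whole astrocyte TRAP, with its standard error as a bar, for the 9 genes (red) and their listed relatives and partners (grey, open where the adjusted p is above 0.05). The 9 genes lie between 4.52 and 9.56, and among the relatives only Enpep at 8.14, Itgb6 at 6.15 (from 5 whole astrocyte counts), Pdgfb at 4.58 and Itgb3 at 4.57 reach that range. Itgb3 had 1 count in endfeet library 1.

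Levels can be compared between genes only per length, as CPM per kb of the counted transcript. In endfeet TRAP, Rgs5 led with 1059 ± 378 CPM per kb (SD, n = 6), followed by Vtn with 278 ± 106. Rgs5 stood above Vtn in 6 of 6 libraries. Next came Higd1b with 66.5 ± 55.1, Abcc9 with 65.3 ± 34.9, Kcnj8 with 39.2 ± 21.6 and Pdgfrb with 35.8 ± 12.1 CPM per kb. Among these 4 the order was not stable. Higd1b stood above Abcc9 in 1 of 6 libraries, Abcc9 above Kcnj8 in 4 of 6 and Kcnj8 above Pdgfrb in 4 of 6. The values of Abcc9 take its transcript of 6213 bases. They are lower with its longer transcripts, which had almost the same counts. Anpep (16.3 ± 7.86), Cspg4 (7.01 ± 3.47) and Ndufa4l2 (6.35 ± 6.59) followed, with Anpep above Cspg4 in 6 of 6 libraries and Cspg4 above Ndufa4l2 in 5 of 6.

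The order in whole astrocyte TRAP was another. Vtn came first with 5.26 ± 1.44 CPM per kb (SD, n = 3), above Rgs5 with 4.12 ± 0.52 in 2 of 3 libraries, and Pdgfrb followed with 1.54 ± 0.17. The other 6 genes had means of 0.490 CPM per kb or less, and Kcnj8 and Abcc9 came last with 0.105 and 0.0877. Summed over the 9 genes and not corrected for length, the level in whole astrocyte TRAP came to 35.0, 43.7 and 38.0 CPM. In endfeet TRAP the sum was 2342 CPM in library 1 and 5521 to 7716 in the other 5. Rgs5 alone gave 38.2% to 49.9% of that sum in whole astrocyte TRAP and 63.8% to 85.3% in endfeet TRAP.

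**Figure D3:**
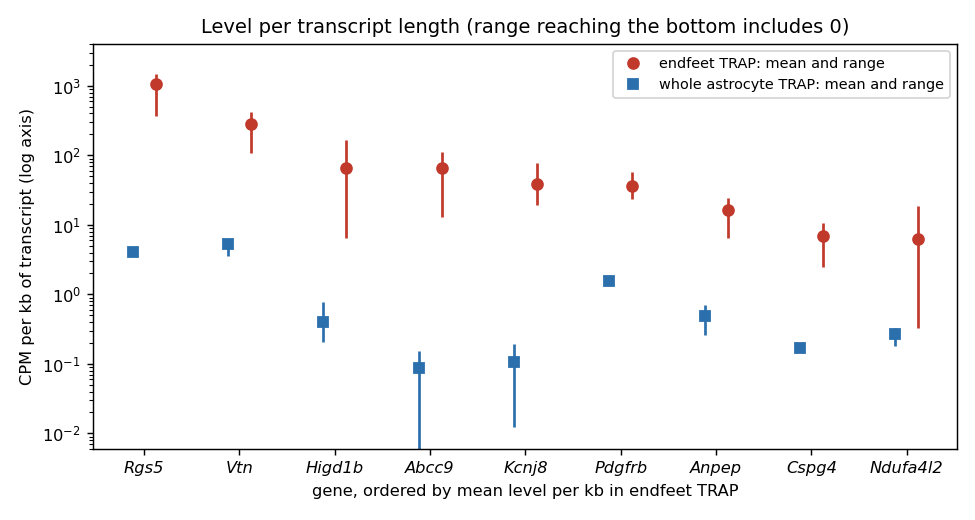
Level per kb of transcript, in CPM per kb on a log axis, as the mean (symbol) and the range (line) over 6 endfeet TRAP and 3 whole astrocyte TRAP libraries. Rgs5 and Vtn lead in both groups, while Kcnj8 and Abcc9 are the lowest in whole astrocyte TRAP and rank in the middle in endfeet TRAP. The range of Abcc9 in whole astrocyte TRAP reaches 0.

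The 9 genes did not vary as a block between endfeet libraries. Library 1 was the lowest for 6 of the 9 genes, library 6 for Vtn and Cspg4 and library 4 for Pdgfrb. Library 3 was the highest for 6 genes, library 4 for Rgs5 and Abcc9 and library 2 for Anpep. Pdgfrb ran against the rest in library 1, where it ranked second of the 6 while Rgs5, Kcnj8, Abcc9, Anpep, Higd1b and Ndufa4l2 ranked last. Rgs5 per Pdgfrb, as a ratio of CPM, was accordingly 7.06 in library 1 against 13.9 to 47.4 in the other 5, and 1.73 to 2.36 in whole astrocyte TRAP. Library 1 had the fewest genes detected but for library 6 (13062 and 12725). It was also the lowest in the summed level of endothelial markers (3355 CPM) and of other genes known from pericytes (1446 CPM). It was not the lowest in smooth muscle markers, with 1970 CPM against 1735 in library 4. Nor was it in fibroblast markers, with 2032 CPM against 1400 in library 6. The part of depth and vessel content in this spread was not tested.

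**Figure D4:**
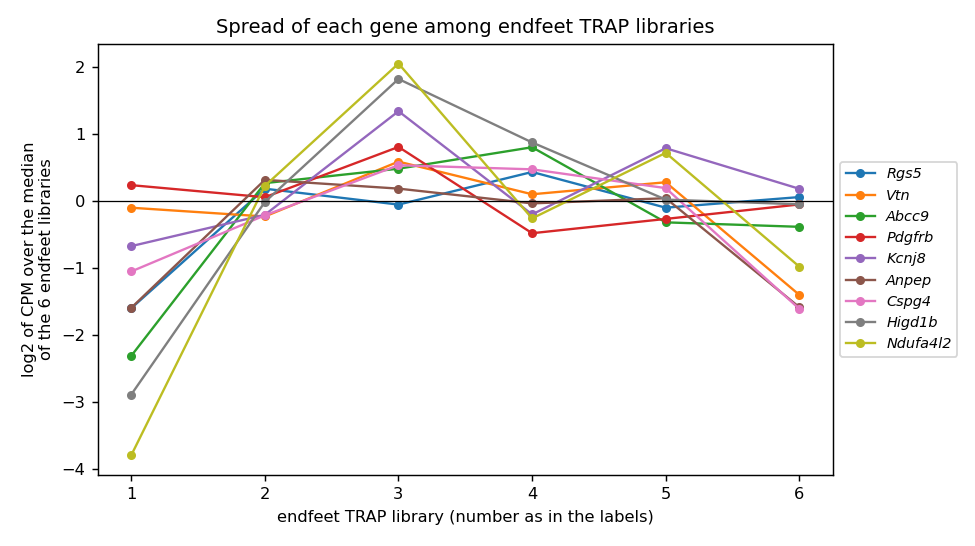
Spread of each gene among the 6 endfeet TRAP libraries, as log2 of its CPM over its median in these libraries (0 is the median). Library 1 is the lowest for 6 genes and library 3 the highest for 6, while Pdgfrb stays above its median in library 1. Ndufa4l2 and Higd1b have the widest span, 57.3-fold and 26.1-fold.

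Other genes known from pericytes were mostly higher too. Of 25 further pericyte genes, 20 were called higher, none lower and 5 did not pass, with a median log2 fold change of 5.33 beside 0.10 over all genes. Aspn, a small leucine-rich matrix protein, had the largest change (8.44, adjusted p = 3.42e-05, edgeR), with 0 to 0.184 CPM in whole astrocyte TRAP and 21.2 to 51.7 in endfeet TRAP. Enpep, given above, followed. Heyl, a Notch target, had 105 to 114 CPM in whole astrocyte TRAP and 42.9 to 225 in endfeet TRAP (0.10, adjusted p = 0.887, edgeR). Gucy1a1, a subunit of the nitric oxide receptor, had 132 to 146 and 43.3 to 194 CPM (0.20, adjusted p = 0.688, edgeR). The sum over the 25 genes was 1446 to 2520 CPM in endfeet TRAP against 418 to 445 in whole astrocyte TRAP.

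Markers of the other cells of the vessel wall were higher in the same libraries. All 15 endothelial markers were called higher, with a median log2 fold change of 9.34, and summed to 3355 to 7207 CPM in endfeet TRAP against 53.8 to 64.0 in whole astrocyte TRAP. The fitted change of Tie1, an endothelial receptor, was 12.32, from 0, 1 and 0 whole astrocyte counts, which is under the floor and so gives no measurable fold. The smallest changes were those of the junction protein Ocln (6.68) and of Slco1c1, a thyroxine transporter (3.38). Ly6c1 was at 0 in all 3 whole astrocyte libraries. Of 14 contractile markers of smooth muscle, 13 were called higher and 1 did not pass, with a median of 4.81 and sums of 1735 to 3089 CPM against 134 to 160.3. The smooth muscle myosin Myh11 (8.24) and the actin Acta2 (7.44) led, while Lmod1 had 2.30 (adjusted p = 0.0426, edgeR, and 0.0716 to 0.146 without any whole astrocyte library or endfeet library 2, 3, 4 or 5) and Ramp1, a receptor subunit, did not pass (-0.25, adjusted p = 0.606, edgeR). Of 12 fibroblast markers, 11 were higher, with a median of 5.12 and sums of 1400 to 2334 CPM against 54.6 to 82.6, Col1a2 (5.99) and Col1a1 (5.89) the highest, Fbln1 (3.80) among the lowest, and Twist1 (1.38) the 1 that did not pass. The part of these cells in the values of Pdgfrb, Vtn, Anpep and Cspg4 was not tested.

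Markers of the tagged cell were present in both groups but did not move with the 9 genes. Of 12 astrocyte markers, 1 was higher, 6 were lower and 5 did not pass, and they summed to 12180 to 31890 CPM in endfeet TRAP against 36590 to 40090 in whole astrocyte TRAP. Aqp4, the water channel of the endfoot membrane, was the higher one (log2 fold change 1.67, adjusted p = 0.00635, edgeR). The 6 lower ones were Hes5 (-4.54), Aldoc (-4.00), Sox9 (-3.27), Glul (-3.26), Aldh1l1 (-2.38) and Gjb6 (-1.44). These genes were named after their values were seen. Transcripts encoded in the mitochondrial genome, which are not read by cytosolic ribosomes, were higher as well. Of 9 listed, 6 were tested and 6 called higher, with a median log2 fold change of 7.28 and sums of 3266 to 7881 CPM in endfeet TRAP against 27.6 to 52.9 in whole astrocyte TRAP, and 3 were at 0 throughout. Their part in the result was not tested.

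The level of each gene was next set against the other vessel cells of the same library, as the log2 ratio of its CPM to the summed CPM of the endothelial or the smooth muscle markers (0.1 CPM added to both). Differences between the groups were tested by a two-sided exact permutation test over 84 splits, 18 tests in all, with Benjamini-Hochberg adjustment, and the smallest p that these splits allow is 0.0119. Against the smooth muscle sum, Rgs5, Kcnj8, Abcc9 and Vtn were relatively higher in endfeet TRAP, by 3.91, 4.13, 5.62 and 1.66 on the log2 scale (adjusted p = 0.0238 each, exact). The other 5 did not pass, at 0.49 for Pdgfrb, 0.92 for Anpep, 1.09 for Cspg4, 2.44 for Higd1b and -0.59 for Ndufa4l2 (adjusted p = 0.0714 to 0.63, exact). For Rgs5, Kcnj8 and Abcc9 the call was kept in 4 of 4 other ways to form the ratio, the last of them chosen after seeing the data. For Vtn it was kept in 2 of these 4.

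Against the endothelial sum, 4 genes were relatively lower in endfeet TRAP, namely Pdgfrb (-1.98), Anpep (-1.55), Cspg4 (-1.37) and Ndufa4l2 (-3.06, adjusted p = 0.0238, 0.0238, 0.0389 and 0.0389, exact). These 4 calls were kept in 4 of 4 other ways too. Rgs5 (1.44), Kcnj8 (1.66) and Abcc9 (3.15) were relatively higher (adjusted p = 0.0238 each, exact), while Vtn (-0.81, adjusted p = 0.1) and Higd1b (-0.03, adjusted p = 0.988) did not pass the exact test. These 3 calls depend on how the ratio is formed. Of the 4 other ways, Kcnj8 was called relatively higher in 0 and Abcc9 in 1. With 1 CPM added to both in place of 0.1, Kcnj8 turned to -0.39 (adjusted p = 0.286, exact) and Abcc9 had 1.40 (adjusted p = 0.0714), while Rgs5 had 1.39 (adjusted p = 0.0238). With the median over the markers in place of the sum, Rgs5 turned to -0.30 (adjusted p = 0.257, exact). Slco1c1 made up 80.3% to 85.3% of the endothelial sum in whole astrocyte TRAP and 6.15% to 14.2% in endfeet TRAP. With it left out, the ratio, endfeet minus whole astrocyte TRAP, differed by -1.0 for Rgs5 (adjusted p = 0.0428, exact), -0.78 for Kcnj8 (adjusted p = 0.228) and 0.71 for Abcc9 (adjusted p = 0.617), and Vtn (-3.25) and Higd1b (-2.47) passed as relatively lower. In the same alternative Ramp1, 49.2% to 55.8% of the smooth muscle sum in whole astrocyte TRAP, was left out of that sum, and Vtn no longer passed against it (0.60, adjusted p = 0.215, exact). Leaving out any whole astrocyte library, or endfeet library 5, left 0 of 18 calls, with fewer splits to draw on.

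By profile over all 9 libraries, the genes outside the list that were most like the mean of the 9 were S1pr3, Rasgrp3, Srgn, Mcam and mt-Nd6. The measure was the root mean square difference of log2(CPM + 1), each centred on its mean, and it was 0.223, 0.224, 0.245, 0.259 and 0.276. Since it uses both groups, fold changes near those of the 9 genes follow from the choice and are no separate result. S1pr3, a receptor for sphingosine-1-phosphate, had 1.58 to 1.70 CPM in whole astrocyte TRAP and 25.5 to 150.3 CPM in endfeet TRAP (log2 fold change 5.82, adjusted p = 8.20e-06, edgeR). Mcam, an adhesion molecule of the vessel wall, had 5.86 (adjusted p = 9.81e-06, edgeR). Rasgrp3 and Srgn had 5.48 and 5.83. The gene mt-Nd6 is encoded in the mitochondrial genome and had 7.13 (adjusted p = 4.74e-06, edgeR). S1pr3 and Mcam also stand in the list of further pericyte genes.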

How the data were processed

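TRAP RNA was amplified with the Ovation RNA-Seq system and sequenced in 9 libraries. The authors filtered the reads, aligned them with Bowtie to mm10, dropped reads with several alignments and counted overlaps with Ensembl transcripts by HTSeq 0.5.3, after bcl2fastq 1.8.4 (names and versions per the submitters' processing notes). The deposited values are raw counts per transcript, neither normalized nor pooled over replicates. Of 75466 transcripts, 73164 (96.9%) matched the GENCODE annotation and held 98.3% to 98.6% of the counts of each library. For each of 22092 genes the transcript with the highest summed CPM stood for the gene.

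CPM are relative to the sum over genes. The test was edgeR 4.0.16 in R 4.3.3 (TMM, filterByExpr, quasi-likelihood test, two-sided, Benjamini-Hochberg over 14427 genes, threshold 0.05), checked on simulated counts. DESeq2 1.42.0, limma 3.58.1 and other filters, scalings, covariates and left-out libraries were alternatives. The 9 genes, the marker lists and the tests were chosen with earlier results of these data known. Named beside the 9 genes were the listed relatives and partners, the 2 called genes with the largest and the 2 tested genes with the smallest absolute change of each marker list of the vessel wall, microglia and oligodendrocyte precursors, and the 5 nearest profiles. Groups and replicate numbers came from the labels. Values adjusted over the list alone were not computed, since the list was chosen with results known. A listed partner gene is not reported here.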

Additional observations from a re-analysis of the deposited data

How the results depend on the processing

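Over 18 alternatives, the calls of 8 of the 9 genes were kept wherever the gene was tested, and that of Ndufa4l2 was lost in 4. Requiring at least 10 counts in every library left 5 genes tested and called, without Kcnj8, Abcc9, Higd1b and Ndufa4l2, by construction. Of 108 other listed or nearest genes called, 88 kept their call in all alternatives that tested them and 20 lost it in at least 1, each of these also with a whole astrocyte library left out. The replicate numbers of the labels showed no sign of pairing the libraries, though 3 pairs cannot exclude it. Deviations of same-numbered libraries had a mean correlation of 0.00452 (3 pairs, -0.0364 to 0.0324) against 0.00111 for other pairs. With the replicate number as a block, 8 of 9 genes were called and 4459 genes over all, with Ndufa4l2 at 4.07 (adjusted p = 0.0956, edgeR). In that fit endfeet libraries 4 to 6 each stand alone in a block and do not bear on the group difference. Endfeet libraries 1 to 3, which carry it, are of the number series without whole astrocyte libraries. By limma voom 8413 genes were called, 4485 of them lower, and by DESeq2 3840 higher and 2423 lower, against 2991 and 2006 by edgeR. The share called higher ranged over these alternatives and fits from 12.6% to 27.7%. Leaving out 1 library in turn gave 3071 to 6022 genes called (1874 to 3380 higher, 1171 to 2642 lower), with the lowest counts without a whole astrocyte library, and 0 to 10 of 18 ratio calls against 11. The median log2 fold change over all genes ranged from -0.29 (voom) to 0.23 (DESeq2), while that of the members tested stayed between 5.29 and 5.96. The 5.29 came from the fit with at least 10 counts in every library, in which 5 members were tested. Kcnj8 relative to endothelial markers turned to -0.39 with 1 CPM added, and with the median over the list in place of the sum it was -0.0847 and that of Rgs5 -0.30. Without Slco1c1 and Ramp1, an alternative chosen after seeing the data, they were -0.78 and -1.0. Abcc8 turned to -7.40 in the number series that holds both groups, whose endfeet libraries held 0 counts of it. The cause of these turns was not tested.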

Other observations

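Markers of immune cells of the brain and its vessels were mostly higher in endfeet TRAP. Of 15 microglia and macrophage markers, 11 were called higher, none lower and 4 did not pass by edgeR, with a median log2 fold change of 3.56 and summed levels of 252.5 to 521 CPM in endfeet TRAP against 38.1 to 43.3 in whole astrocyte TRAP. Mrc1, a mannose receptor of perivascular macrophages, had 0.639 to 1.13 CPM in whole astrocyte TRAP and 95.2 to 163.5 in endfeet TRAP (log2 fold change 7.18, adjusted p = 3.35e-07, edgeR). Cd68, a lysosomal protein of phagocytes, had 5.13 (adjusted p = 0.000708, edgeR). P2ry12, a receptor of resting microglia, and Aif1 had 1.0 and 1.02 and did not pass. Of 10 neuron markers, none was higher, 3 were lower and 7 did not pass. Over all genes tested, 20.7% were higher and 13.9% lower. The neuron markers summed to 1013 to 1968 CPM in endfeet TRAP against 3935 to 4462 in whole astrocyte TRAP.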
